A study of Mus musculus with 39 samples.

Results

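Of the 7136 estrogen receptor (ER) binding sites called in estradiol-treated 7438 mouse mammary cells, 837 (11.7%) were absent from the ER list named for treatment with both hormones. A site counted as absent when no site of that list shared at least 1 bp with it. The 837 sites are called lost and the other 6299 kept, so the words describe presence in a list. Absence from a list does not show that a receptor had left the DNA. The members were chosen by these 2 ER lists, and their values in them are given as a description without a test.

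The label of the second list is in doubt. The ER list of 11982 sites that is named for both hormones was filed under the sample labelled untreated. The list of 373 ER sites named untreated was filed under the sample labelled with dexamethasone and estradiol. The glucocorticoid receptor (GR) lists of 7438 carry the same conflict. The names were followed here, so every statement on both hormones in 7438 rests on them. Read by the labels, 6955 of the 7136 estradiol sites (97.5%) would be absent with both hormones. They would include 817 of the 837 lost sites.

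ChIP-seq, the sequencing of DNA bound by an immunoprecipitated protein, was carried out with 1 antibody cocktail against ER and another against GR. The 7438 cells carry GFP-tagged GR and Cherry-tagged ER genes under a tetracycline-regulated promoter. All cultures had tetracycline withdrawn before hormone, so both fusion proteins were switched on in every group, the untreated one included. Cells were left untreated or received 100 nM dexamethasone (Dex, a synthetic GR ligand), 100 nM estradiol (E2, the natural ER ligand) or both (Dex+E2) over 30 min. A derivative called 7438 Afos, in which Afos is carried as well, was treated alike. What Afos does is not said in the labels. A protein of that name, A-Fos, is in common use as a dominant negative that prevents AP-1 from binding DNA. Lists of called sites were used for 24 of 39 samples. In 7438 there were 8 lists, 1 for each group, although the samples of each group are labelled as 2 replicates. These lists thus have no replicate list. In 7438 Afos there were 16 lists, with 2 replicates in each group. Nothing states that paired lists came from separate cultures, so the spread between them may be technical.

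ER and GR are steroid-activated transcription factors of 1 nuclear receptor family. Estradiol-bound ER binds estrogen response elements, and dexamethasone-bound GR binds glucocorticoid response elements. Both also occupy chromatin already opened by other factors, AP-1 among them. When both ligands are present, either receptor can alter where the other is found. The sequences of the sites are not shown, because no genome of build mm9, in which the lists are written, was used here.

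The lost sites were among the weakest of the estradiol list. Strength was read as the highest tag density of a site, a signal whose scaling the authors' lists do not state, and as its percentile rank within its own list. The lost sites had a median density of 11.8 (quartiles 10.8 and 13.9, range 10.0 to 86.4), and the kept sites 18.4 (13.4 and 29.1, highest 374). Every density in the list was at least 10, so the lost sites lay close above its lower limit. Their median rank was percentile 18.3 (quartiles 7.92 and 34.1), against 55.1 (30.5 and 77.8) for kept sites. The deposited z-score had medians of 38.8 and 53.7. A density below 12 was found at 439 lost sites (52.4%) and at 15.2% of the kept ones. Only 78 lost sites (9.32%) ranked above the median of the list, 40 reached a density of 20 and 11 reached 30.

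The share of sites lost fell with every step in strength. The list was divided by rank into 5 strength classes of about equal size. In the weakest class 448 sites were lost, or 31.3% of the class. The shares were 17.2%, 7.20% and 2.24% in the next 3 classes. In the strongest class 10 sites were lost, or 0.700%. Strength and the lower limit of the lists thus move with membership, and their part in it was not tested. Several of the results below are therefore also given within these classes.

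**Figure D1:**
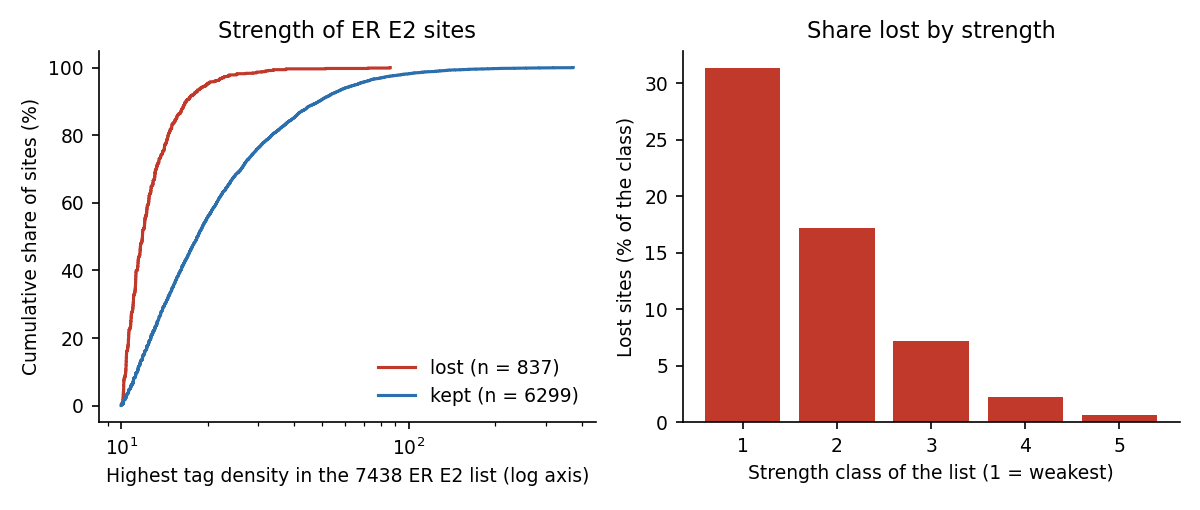
Left, cumulative share of lost and kept sites (%) against highest tag density in the 7438 ER E2 list (log axis); right, share of each class of that list that was lost (%, bars from 0). The curve of the lost sites rises far to the left of that of the kept sites, and the share lost drops from 31.3% in the weakest class to 0.700% in the strongest.

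A minority of the lost sites lay beside an ER site of the list named for both hormones. Measured between nearest edges, the median distance from a lost site to that list was 12.9 kb (quartiles 2.40 and 48.1 kb), and 110 sites lay over 100 kb away. At the other end, 40 lost sites had such an ER site within 150 bp, 115 within 500 bp and 149 (17.8%) within 1000 bp. These 149 are called near and the other 688 (82.2%) far. By density, near sites were the stronger of the 2 groups, with a median of 14.1 against 11.7 and ranks of 34.7 against 16.8. The deposited z-score went the other way, with medians of 32.6 for near and 39.5 for far sites. The neighbour in the other list ranked higher there, with a median at percentile 71.0. A kept estradiol site lay within 1000 bp of 112 near sites, and 71 near sites shared the parent region number of a kept site in the deposited list. A z-score under 25 was found at 27.5% of near sites, 4.65% of far sites and 1.87% of kept sites.

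The strongest lost sites were mostly of the near kind. Of the 10 strongest 8 were near, of the 20 strongest 15, and of the 50 strongest 31. The highest density of any far site was 33.8. Site calls of 150 bp with 1 bp as the limit separate neighbours that almost touch. The 3 lost sites closest to the limit were 3, 9 and 9 bp from an ER site of the list named for both hormones, with estradiol densities of 18.4, 14.6 and 14.8. The 3 kept sites with the smallest overlap shared 2, 3 and 5 bp, with densities of 13.6, 10.6 and 107. Such cases were few among kept sites, of which 7 overlapped by less than 10 bp and 71 (1.13%) by less than 75 bp. The median overlap was 140 of 150 bp.

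**Figure D2:**
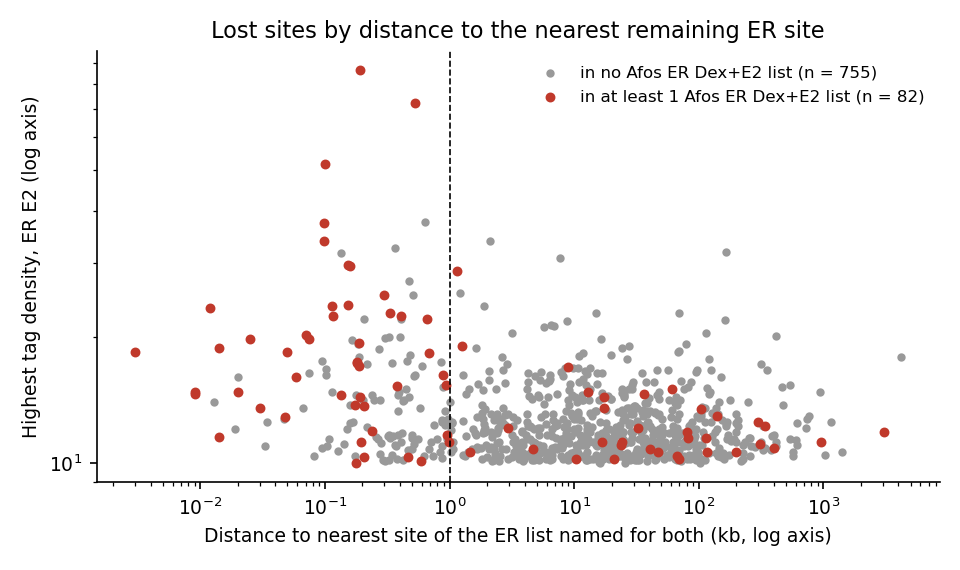
Each point is a lost site, placed by its distance to the nearest ER site of the list named for both hormones (kb, log axis) and by its highest tag density with estradiol (log axis); the dashed line marks 1 kb. Red points, the 82 sites in at least 1 Afos ER Dex+E2 list, are concentrated left of the line, where 48 of them lie.

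The 3 strongest lost sites were all near. The strongest lost site, at chr17:75509892-75510042 (mm9), had a density of 86.4, and lay 192 bp from an ER site of density 246 in the list named for both hormones. In 7438 Afos an ER site covered it in every list with estradiol, with densities of 152 and 113 for E2 and 50.9 and 28.5 for Dex+E2. The next, at chr16:3236089-3236239, had a density of 72.2 and lay 528 bp from a site of density 103. Its Afos ER densities were 75.03 and 30.6 with E2 and 58.5 and 13.6 with Dex+E2. GR was present at both, with densities of 23.3 and 29.4 in the 7438 GR list named for both hormones. The 7438 ER list named untreated, which is labelled Dex+E2, also held both, at 12.8 and 15.8. Read by the labels, they would therefore count as kept. The third, at chr1:74116117-74116267, had a density of 51.5 and a neighbour of density 35.0 at 101 bp. It was in both Afos ER E2 lists (17.0 and 17.0) and in 1 Afos ER Dex+E2 list (22.7). All 3 were thus absent beside an ER site that was present. A kept estradiol site lay 188, 537 and 90 bp from them. Afos ER sites are at least 251 bp wide and can cover such a neighbour as well. The Afos densities given here may therefore be those of the neighbour.

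The strongest far site gave the opposite picture. It lies at chr14:31355016-31355166, had a density of 33.8, and the nearest ER site of the list named for both hormones was 2111 bp away. Afos ER E2 lists held it with densities of 45.9 and 25.3, and neither Afos ER Dex+E2 list held it. No GR site of any treatment overlapped it, and the nearest in the 7438 GR list named for both hormones was 55.3 kb away. Further far sites were picked from the strongest lost sites in both Afos ER E2 lists and in neither Dex+E2 list. Their absence with Dex+E2 was thus set by the choice. Of these, the site at chr10:80874858-80875008 (density 30.8) had Afos ER E2 densities of 28.9 and 15.8, with GR 9.60 kb away. At chr5:125681865-125682015 (density 23.7) the Afos ER E2 densities were 33.4 and 25.9. The strong far site at chr15:74917244-74917394 (density 31.9) differed from these. Its only other call in the series was in the 7438 ER list named untreated, at 69.3.

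Among the 24 lists, those of 7438 Afos with E2 alone tell whether the lost sites were called again in other estradiol-treated cells. They were found there less often than kept sites. Afos ER E2 replicate 1 held 277 lost sites (33.1%, exact binomial 95% interval 29.9 to 36.4%) and 61.2% of kept sites, with 57.9% over all 7136 sites. Replicate 2 held 196 (23.4%, 20.6 to 26.4%) and 55.2%, with 51.5% over all sites. At least 1 of the lists held 297 lost sites (35.5%, 32.2 to 38.8%; 60.5% over all sites), and both held 176 (21.0%; 48.9% over all sites). Where present, lost sites ranked lower in the Afos lists than kept ones, at percentiles 46.3 against 66.6 in replicate 1 and 43.4 against 62.4 in replicate 2. In the weakest class of the 7438 list at least 1 Afos ER E2 list held 29.2% (25.1 to 33.7%) of lost and 40.5% (37.4 to 43.6%) of kept sites. In class 2 the shares were 36.1% (30.0 to 42.4%) and 49.6%. In classes 3, 4 and 5 they were 49.5% against 56.0%, 59.4% against 72.4% and 80% against 90.6%. There the intervals of the lost sites contained the kept shares. Intervals cover counting error only and treat sites as independent, which neighbouring sites are not.

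With Dex+E2 the Afos ER lists lacked most of the lost sites. Replicate 1 held 79 (9.44%, 7.54 to 11.6%), against 48.5% of kept sites and 43.9% of all. Replicate 2 held 31 (3.70%, 2.53 to 5.22%), against 28.2% of kept sites and 25.3% of all. At least 1 list held 82 lost sites (9.80%, 7.87 to 12.01%; 44.5% over all sites), so 755 were absent from both. Both lists held 28 (3.35%; 24.8% over all sites). Most of the 755 had not been called with E2 in these cells either. No Afos ER list with estradiol held 528 lost sites (63.1%), against 31.7% of kept sites and 35.4% of all. Only 12 lost sites (1.43%; 4.18% over all sites) were in a Dex+E2 list and in no E2 list.

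The number of lost sites per Afos ER list was 277 and 196 with E2 and 79 and 31 with Dex+E2, so the treatments did not overlap. The means were 236.5 ± 57.3 and 55.0 ± 33.9 (SD, n = 2 each), a ratio of 0.233 (two-sided exact permutation test, p = 0.333). That is the smallest p that 2 lists against 2 can give. The same-numbered ratios were 0.285 and 0.158. Kept sites gave counts of 3857 and 3476 with E2 and 3057 and 1777 with Dex+E2, a ratio of 0.659, with 0.793 and 0.511 in same-numbered lists. All 7136 sites together gave 0.633. The Dex+E2 lists are also shorter in themselves, with 5905 and 2564 sites against 6046 and 4687, and their depth is unknown.

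**Figure D3:**
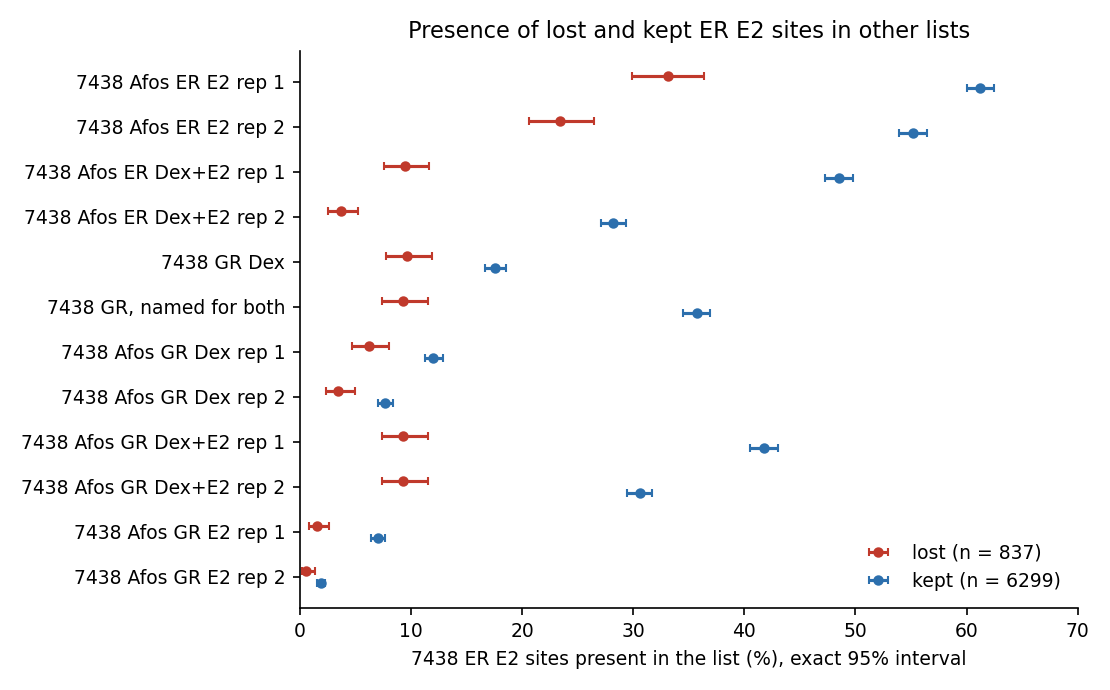
Share of the 837 lost (red) and 6299 kept (blue) 7438 ER E2 sites present in each of 12 other lists (%), with exact binomial 95% intervals. Lost sites lie left of kept sites in all 12 lists drawn, and the distance between them is widest in the Afos ER lists and in the GR lists with both hormones. Another 10 lists are not drawn, and in 4 of them the lost share was the higher one.

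Only a site that was called with E2 can be seen to go with Dex+E2, so the 176 lost sites present in both Afos ER E2 lists were followed. Neither Afos ER Dex+E2 list held 115 of them (65.3%, exact interval 57.8 to 72.3%). Of the 3315 kept sites in both E2 lists, 735 (22.2%) were in neither, and over all 3491 such sites the share was 24.3%. Another 37 lost sites were in 1 Dex+E2 list and 24 in both, so 61 (34.7%, 27.7 to 42.2%) were in at least 1, here called retained, against 77.8% of kept and 75.7% of all sites. In same-numbered lists 67 of 277 lost sites (24.2%) and 27 of 196 (13.8%) were in the Dex+E2 list, against 71.1% and 46.4% of kept sites. Without replicate 2 or without replicate 1 the share of lost sites retained was thus 24.2% or 13.8%. The 176 lost and 3315 kept sites were all picked for being in both Afos ER E2 lists, so with Dex+E2 their numbers could only stay or fall. The shares are a description, to be read against those of kept and all sites, which passed the same filter.

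Near and far sites differed in this. Of 44 near sites in both Afos ER E2 lists, 32 (72.7%, 57.2 to 85.0%) were in at least 1 Dex+E2 list. Of 132 far sites, 29 (22.0%, 15.2 to 30.0%) were, and 103 (78.0%) were in neither. The share at near sites was close to that of all sites. Afos sites are wider, with a shortest width of 251 bp, and can cover a near site and its neighbour together. Of the 48 near sites in an Afos ER Dex+E2 list, 39 (81.3%) were covered by an Afos site that also overlapped an ER site of the 7438 list named for both hormones. The near sites made up 58.5% of the 82 lost sites found in an Afos ER Dex+E2 list. Of all 688 far sites, 34 (4.94%) were in at least 1 of these lists.

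Retention was lower for lost than for kept sites in each class of the 7438 estradiol list, with few lost sites in the strongest classes. From the weakest class up it was 17 of 68 lost sites (25%) against 73.0% of kept sites, 16 of 51 (31.4%) against 65.8%, and 14 of 36 (38.9%) against 70.7%. In the 2 strongest classes, 9 of 13 (69.2%, exact interval 38.6 to 90.9%) stood against 76.5% and 5 of 8 (62.5%, 24.5 to 91.5%) against 87.1%, and the intervals of the lost sites contained the kept shares. Far sites alone gave 15 of 63 (23.8%), 10 of 42 (23.8%) and 3 of 21 (14.3%) in the 3 weaker classes.

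Strength can also be taken from the Afos ER E2 lists, which did not enter the division into lost and kept sites but did pick the sites followed here. By classes of replicate 1, retention of lost sites was 2 of 17 (11.8%), 6 of 28 (21.4%), 8 of 55 (14.5%), 22 of 50 (44.0%) and 23 of 26 (88.5%) from weakest to strongest. Kept sites had 51.9%, 49.9%, 64.4%, 77.0% and 95.8%. By classes of replicate 2 the lost shares were 10.7%, 14.3%, 34.0%, 50% and 94.1%, and the kept shares 55.8%, 57.2%, 68.3%, 83.0% and 97.4%. In both rankings the lost share lay below the kept share outside its exact interval in the 4 weaker classes. In the strongest class the intervals of the lost share, 69.8 to 97.6% and 71.3 to 99.9%, contained the kept share. Lost sites in the strongest Afos class were therefore mostly still listed in 7438 Afos with Dex+E2. Most of them were near sites, which gave 19 of 19 and 13 of 14 in the 2 rankings, while far sites gave 4 of 7 (57.1%, 18.4 to 90.1%) and 3 of 3.

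**Figure D4:**
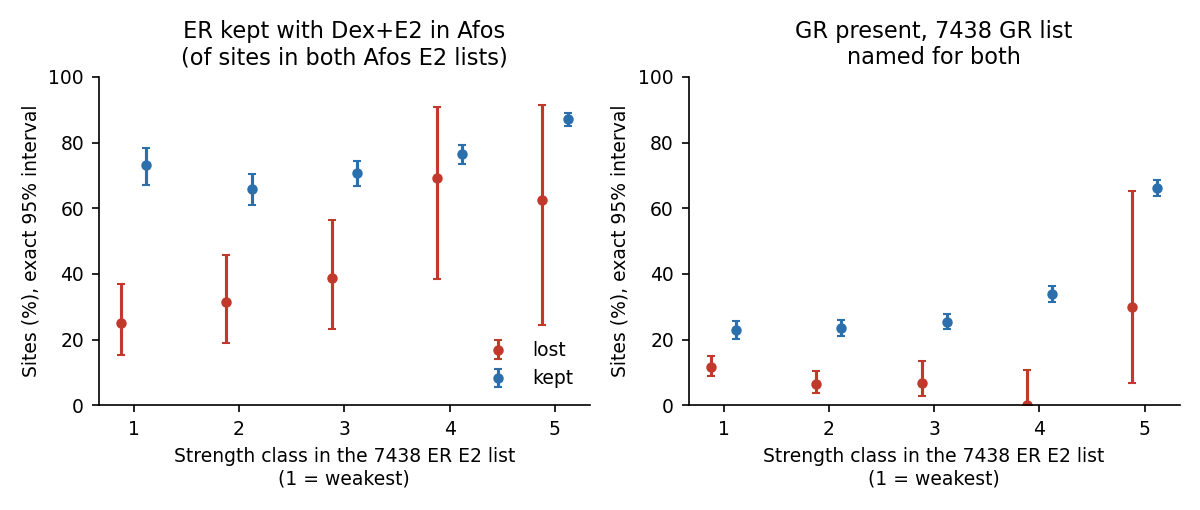
Left, of the sites in both Afos ER E2 lists, the share present in at least 1 Afos ER Dex+E2 list (%); right, share of sites with a GR site in the 7438 GR list named for both hormones (%). Both are drawn by class of 7438 ER E2 strength (1 is weakest), lost in red and kept in blue, with exact 95% intervals. Lost points lie below kept points in every class, and the intervals of the lost sites are wide in the 2 strongest classes.

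The 24 lost sites in all 4 Afos ER lists with estradiol were strong there. Their median rank was percentile 85.9 with E2 and 78.7 with Dex+E2 in replicate 1, and 78.8 and 43.5 in replicate 2. The rank was lower with Dex+E2 at 18 of the 24 in replicate 1 and at 20 in replicate 2. This count was made for lost sites only. The lists compared differ in length, with 6046 and 5905 sites in replicate 1 and 4687 and 2564 in replicate 2. A lower rank is therefore not shown to be particular to lost sites. Of the 24 sites 16 were near. A GR site of at least 1 Afos Dex+E2 list was present at 19 of the 24 (79.2%), at 10 of the 37 sites in 1 Dex+E2 list (27.0%) and at 4 of the 115 sites in neither (3.48%). Kept sites had the same order, with 89.6%, 43.4% and 8.71%.

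GR was present at few lost sites. The 7438 GR list named for both hormones had a site at 78 lost sites (9.32%, exact interval 7.44 to 11.5%) and at 35.7% of kept sites, with 32.6% over all. In 7438 Afos each of the GR Dex+E2 lists had a site at 78 lost sites (9.32%), against 41.8% of kept and 38% of all sites in replicate 1, and 30.6% and 28.1% in replicate 2. At least 1 of these lists had GR at 98 lost sites (11.7%, 9.61 to 14.1%), against 44.1% of kept and 40.3% of all sites. By 7438 ER E2 strength class, from the weakest up, the lost shares were 10.0%, 8.20%, 16.5%, 25% and 80%. The kept shares were 32.3%, 33.1%, 35.5%, 44.4% and 69.2%. The strongest class holds only 10 lost sites, with an interval of 44.4 to 97.5%. Of the 98 sites 64 were near, and an Afos GR site that also overlapped a 7438 ER site of the list named for both hormones covered 55 of these 64. Among far sites 34 (4.94%) had GR in an Afos Dex+E2 list. The 7438 GR sites are as narrow as the ER sites, and there GR was at 26 near sites (17.4%) and 52 far sites (7.56%). Over all 12 GR lists of both cell lines, 690 lost sites (82.4%) had no GR site, against 47.3% of kept sites. The other 147 (17.6%) had GR in some list, with 48.6% over all sites.

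GR with Dex alone was less uneven. The 7438 GR Dex list had a site at 81 lost sites (9.68%, 7.76 to 11.9%) and at 17.6% of kept sites, with 16.7% over all. Lost sites thus had about as many GR sites in the list named for both hormones as with Dex, 78 and 81, a ratio of 0.963. Of these, 67 were in both lists (15.8% over all sites), 11 (1.31%; 16.8% over all sites) only in the list named for both hormones and 14 (1.67%; 0.883% over all) only with Dex. At kept sites the number was 1108 with Dex and 2249 in the list named for both hormones, a ratio of 2.03, of which 1190 sites (18.9%) were in the second list only. The rise in GR from Dex to both hormones that kept sites showed in 7438 was not seen at lost sites. These are single lists, and the difference was not tested. The 7438 GR list named for both hormones is also the shorter, with 9503 sites against 12084 with Dex. In 7438 Afos the lost sites had GR in 52 and 29 cases with Dex (11.3% and 7.2% over all sites) and in 78 and 78 with Dex+E2, a ratio of the means of 1.93. Kept sites had a ratio of 3.67. The Dex+E2 lists are also longer, with 14160 and 10309 sites against 8873 and 5136, a ratio of the means of 1.75. The two-sided exact permutation test on the lost sites gave p = 0.333, the smallest possible.

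Lost sites with GR in the 7438 list named for both hormones were weaker ER sites than those without, at percentile 11.5 against 18.9. Kept sites had the reverse, 73.2 with GR and 47.3 without. The GR sites themselves ranked at percentile 42.0 of this 7438 list at lost and 55.1 at kept sites. In the Afos GR Dex+E2 lists the order was reversed, at 63.6 against 61.4 in replicate 1 and 63.2 against 58.2 in replicate 2. In the weakest class GR was at 11.6% of lost (exact interval 8.79 to 14.9%) and 22.9% of kept sites. The next classes had 6.56% (3.79 to 10.4%) against 23.4%, and 6.80% (2.78 to 13.5%) against 25.5%. With Dex alone the weakest class had 11.8% of lost (8.99 to 15.2%) and 16.5% of kept sites. The next classes had 7.38% (4.43 to 11.4%) against 17.8%, and 6.80% (2.78 to 13.5%) against 16.9%. In each of the 3 weaker classes, which hold most lost sites, GR was therefore less frequent at lost than at kept sites. This held in the list named for both hormones and with Dex alone.

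The nearest GR site was usually over 10 kb away from a lost site. In the 7438 GR list named for both hormones the median distance was 20.9 kb (quartiles 3.32 and 78.1 kb), against 5.72 kb for kept and 7.45 kb for all sites. By distance, 78 lost sites overlapped GR, 81 had it within 1 kb, 153 at 1 to 10 kb, 353 at 10 to 100 kb and 172 further away. Most of the difference lay in the overlapping sites. Among sites that GR did not overlap, the median was 28.5 kb for lost and 30.5 kb for kept sites. Near sites account for most of the GR within 1 kb, since only 14 far sites had GR there without overlap. The median for far sites was 31.3 kb. By 7438 ER E2 strength class, from 1 (weakest) to 5, the medians of lost sites were 22521.5, 32282, 13769, 944 and 126.5 bp. Kept sites had 16190, 14714, 14171, 6000 and 0 bp. Lost sites were thus further from GR in classes 1, 2 and 5, and nearer in classes 3 and 4. With Dex alone the medians were 20.8 kb for lost and 15.4 kb for kept sites. In the Afos GR Dex+E2 lists they were 16.5 against 2.50 kb in replicate 1 and 24.3 against 8.90 kb in replicate 2. Lists with more sites give shorter distances, so medians are set side by side only within a list.

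**Figure D5:**
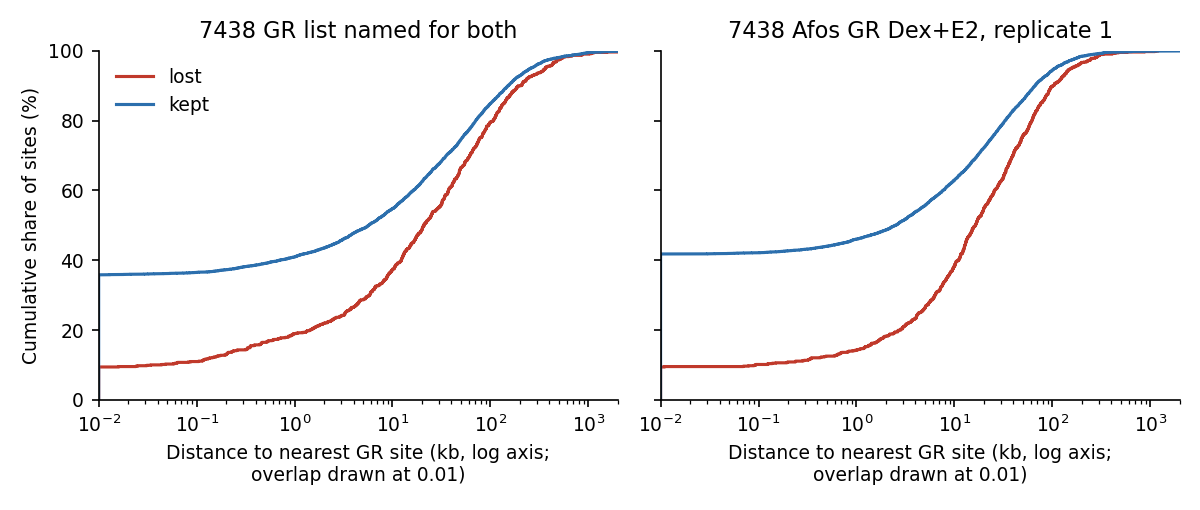
Cumulative share of lost (red) and kept (blue) sites (%) against distance to the nearest GR site (kb, log axis, overlapping sites drawn at 0.01 kb), in the 7438 GR list named for both hormones (left) and Afos GR Dex+E2 replicate 1 (right). The curves start apart, at 9.32% against 35.7% and at 9.32% against 41.8% overlapping GR, and come together at long distances.

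Few lost sites were in an ER list without estradiol, at about the share found over all sites. Of the 22 lists that did not choose the members, 17 held a smaller share of lost than of kept sites, 1 held neither, and 4 held a larger share. These 4 were 7438 ER with Dex (1.31% of lost, 1.25% of kept sites), 7438 GR in the list named untreated (1.19% and 1.13%), Afos GR untreated replicate 2 (1.67% and 1.46%) and Afos ER Dex replicate 1 (0.478% and 0.175%). The 7438 ER list with Dex held 11 (1.26% over all sites), the list named untreated 20 (2.54% over all sites), and at least 1 ER list without estradiol in either cell line held 32 (3.82%; 3.49% over all sites). The Afos ER Dex lists held 4 and 0 (0.21% and 0.042% over all sites). In untreated Afos cells ER was listed at 0 of the 837 sites in each replicate, which allows a share of up to 0.358% when 3 counts are taken as the limit and 0.440% by the exact interval, with 0% and 0.0561% over all sites. GR without Dex was equally rare, with 6 lost sites in the 7438 GR list with E2 (2.79% over all sites), 10 in the one named untreated (1.14% over all sites), and 13 and 5 in the Afos GR E2 lists (6.4% and 1.72% over all sites). The untreated Afos GR lists held 4 and 14 (0.589% and 1.49% over all sites). In each of the 3 GR lists with E2 the share was smaller at lost sites than over all sites. The 5 strongest lost sites with GR in the list named for both hormones include 1 at chr3:84123521-84123671 with GR in several conditions. Its GR density was 24.4 in the list named for both hormones, 38.1 with Dex and 11.2 in the list named untreated, and it had ER in the list named untreated at 12.8. In the Afos ER lists it reached 22.0 and 24.4 with E2 and was absent with Dex+E2. The site at chr1:95167165-95167315 was the reverse case, with GR at 10.9 in the list named for both hormones and no other call besides its own ER E2 density of 18.8.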

How the data were processed

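Called ChIP-seq sites of 24 lists were analysed. Another 15 samples were not analysed here. Per the submitters' processing notes, the build was mm9 and CASAVA 1.8 was used. Which aligner, site caller and threshold were used is not given in the sources used here. Per the file headers, each deposited site has a highest tag density (a signal of the authors) and a z-score (a score of the authors). The deposited p-value of the Afos lists was not used. Numbering in the 7438 ER E2 list runs to 10695 for 7136 sites and in the ER list named for both hormones to 16496 for 11982, so sites had been removed before deposit. Every 7438 site is 150 bp wide. Depth is unknown, because no read totals were used. Coordinates are as deposited.

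Overlap meant at least 1 bp, and distance was taken between nearest edges. The overlap and distance code was tested on simulated lists with known answers. Shares carry exact (Clopper-Pearson) 95% intervals. Numbers of sites per Afos list were compared by exact permutation over lists. The members, the rule for named sites and the groups of sites were chosen with earlier results of these data known. Named sites are the 10 strongest lost sites, the 5 strongest in each of 3 classes, and the 3 closest to either side of the overlap limit. Of these the leading ones are given. The first class was in both Afos ER E2 lists and neither Afos ER Dex+E2 list, and the second in both Dex+E2 lists. The third had GR in the 7438 list named for both hormones. The density limits of 12, 20 and 30, the z-score limit of 25, the near and far comparison, the count of Afos sites that span a neighbour and the 5 strength classes of the Afos lists were added after seeing the data. Motifs and gene annotation were not used here, for want of an mm9 genome. Alternatives were a reciprocal overlap of 50%, a 1000 bp window, sites at or above the median density, the labelled treatments, the lower limits of the 7438 lists (density 10, z-score 15) applied to Afos, each replicate left out, presence in both lists, and same-numbered lists as a replicate block. Python 3.11.15, NumPy 2.4.6, SciPy 1.17.1, pandas 2.3.3 and matplotlib 3.10.9 were used.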

Additional observations from a re-analysis of the deposited data

How the results depend on the processing

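The ratio of lost sites per Afos ER list, Dex+E2 against E2, stayed below 1 under all 11 alternatives, at 0.114 to 0.632, and leaving out a replicate gave 0.158 and 0.285. With same-numbered Afos lists as a replicate block the ratio was 0.222, the exact p stayed at 0.333, and retention of lost sites was 19.0% in place of 34.7%. The numbers pair lists in name only. In 4 of the 11 the ratio lay more than 1 SD of the same-numbered ratios from the reported value (outside 0.143 to 0.322). Of 73 other values recomputed, 29 stayed within the interval of the reported value (1.5 times for the number of lost sites) and 44 did not. The values below are of lost sites only. Except where stated, those of kept or all sites at the same setting are not set beside them. They therefore do not show how the difference between lost and kept sites changes.

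Leaving out a replicate gave 23.4% to 33.1% for presence with E2 in 7438 Afos, 3.70% to 9.44% for Dex+E2, 9.32% for Afos GR with Dex+E2 and 13.8% to 24.2% for retention. Presence in both Afos lists gave 21.0%, 3.35%, 6.93% and 13.6%. With the limits of the 7438 lists applied to Afos, the first 3 of these shares were 23.3%, 6.69% and 9.56%.

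Read by the labels, 6955 sites were lost, at a median rank of 49.8. The Afos shares were then 61.5% with E2, 45.1% with Dex+E2, 39.5% for GR and 75.8% for retention. GR was at 0.561% of them in the 7438 list labelled for both hormones, at a median distance of 8199 kb. That list, named untreated, has only 143 sites. Over all 7136 sites the median distance to it was 8127 kb, and 1.14% overlapped it. For estradiol sites at or above the median density, 78 were lost, at rank 60.6, with Afos shares of 62.8%, 34.6%, 33.3% and 57.5% in the same order and GR 2.19 kb away. With all lists restricted in that way 414 were lost, at rank 58.3, with GR at 4.59% of them in 7438 and 8.21% in 7438 Afos, 54.6 kb away.

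With a window of 1000 bp as overlap, Dex+E2 presence was 6.10%, Afos GR presence 6.54%, retention 25.4% and the GR distance 31.3 kb. Far sites alone, an alternative added after seeing the data, gave 4.94%, 4.94%, 22.0% and 31.3 kb. A reciprocal overlap of 50% gave Afos GR presence of 14.4%. Without sites also called in the absence of estradiol, likewise added, the 7438 GR share was 6.80%. The cause of these changes was not tested. Some settings also leave a smaller number of sites or lists. Depth is unknown, so a site under the limit of a list cannot be told from an unbound one.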

Other observations

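The lost sites were spread over the genome. The share of estradiol sites lost ranged from 7.82% on chromosome 2 (44 of 563) to 15.5% on chromosome 13 (38 of 245). The exact 95% interval of 19 of 20 chromosomes contained the share of the whole list, 11.7%, and chromosome 2 was the exception. The median distance from a lost site to the nearest other lost site was 332 kb. Spacing is given for lost sites only. Another lost site lay within 10 kb of 67 lost sites (8%), and a single group held 3 sites (chr16:3234478-3236239), among them the lost site of density 72.2.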
